A study of Homo sapiens with 12 samples.

Results

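The genes described here are 10 members of the autophagy pathway, grouped by what their proteins do. Their choice was by name, with earlier results of these data known. SQSTM1 and NBR1 encode cargo receptors, MAP1LC3B, GABARAP, GABARAPL1 and GABARAPL2 encode ATG8 proteins, and WIPI1, WIPI2, ULK1 and ATG9A encode proteins of autophagosome initiation. They were taken as the rows of the deposited expression tables with exactly these symbols, out of 23153 genes shared by the 3 tables. All 10 averaged 1 FPKM or more over the libraries, as did 11075 genes in all, and the tests below were run on those 11075. FPKM counts fragments relative to transcript length and to the mapped total, so that levels of different genes can be set side by side.

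Macroautophagy encloses cytoplasmic cargo in a double membrane that later fuses with the lysosome. The ULK1 kinase complex and ATG9A vesicles start the membrane, WIPI proteins bind its phosphoinositide PI3P, ATG8 proteins are coupled to its lipids, and receptors such as p62, the product of SQSTM1, tie ubiquitinated cargo to the ATG8 proteins. Receptors and ATG8 proteins are themselves degraded with the cargo. The libraries measure transcripts and give no value for proteins or for the rate of autophagy.

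K562 cells, an established human erythroleukemia line, were given fatty acids and profiled in 3 numbered experiments, and each library was made from the pooled RNA of 3 biological replicates. The palmitate libraries are from wild-type (WT) cells that received 0.2 mM palmitate, a saturated fatty acid, bound to albumin. Their exposure was 20 h in the labels and 16 h in the legends deposited with the tables of experiments 2 and 3. Each of the 3 experiments has 1 such library and 1 library of untreated WT cells. Experiment 1 adds WT cells given palmitoleate, a monounsaturated acid as long as palmitate, with no dose of its own in the sources used here. Experiment 2 adds WT cells given 0.2 mM palmitate together with 0.2 mM palmitoleate, and GPAT4 knockout (GPAT4ko) cells given palmitate. GPAT4 is an enzyme of the endoplasmic reticulum that couples fatty acids to glycerol-3-phosphate. Experiment 3 adds RNF213 knockdown (RNF213kd) cells given palmitate and untreated RNF213kd cells. RNF213 encodes a ubiquitin ligase. How the knockout and knockdown cells were made, and whether each is 1 clone, is not given in the labels. The untreated GPAT4ko library was not analysed here, so the response to palmitate within the knockout has no value.

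The 11 libraries summed to 612355 to 821188 FPKM, with 10495 to 11108 genes reaching 1 FPKM. The number of reads is not known, so precision rests on the spread between experiments. The GPAT4 transcript (AGPAT6 in the files) stood at 8.77 FPKM in GPAT4ko cells with palmitate, against 20.0 FPKM in WT cells with palmitate. The RNF213 transcript stood at 1.54 and 1.39 FPKM in RNF213kd cells with palmitate and untreated, against 3.08 and 1.96 FPKM in WT cells with palmitate and untreated. All 8 erythroid markers of K562 cells were at 1 FPKM or more in every library. Their summed level was 5831, 4967 and 5037 FPKM with palmitate in WT cells, against 9698, 17790 and 9834 FPKM in untreated WT cells. In bulk RNA, fewer cells of a type and less RNA per cell cannot be told apart. Of 18 markers of lymphocytes, monocytes, fibroblasts, epithelium and endothelium, 3 reached 1 FPKM in each library.

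The promoter stretches of the 4 members that rose with palmitate are printed because these 4 are the members called higher. Each is the 250 bases before an annotated start in RefSeq (GRCh38.p14, a later build than the hg19 of the tables), read 5′ to 3′ on the gene's strand. RefSeq sequence was found for all 10 members. The SQSTM1 stretch, chr5:179820655-179820904 on the plus strand, lies before the most downstream of 3 annotated starts. The WIPI1 stretch is chr17:68457497-68457746 on the minus strand. The MAP1LC3B and GABARAPL1 stretches are chr16:87392086-87392335 and chr12:10212627-10212876, both on the plus strand. Capitals mark a match to the antioxidant response element core in MAP1LC3B and the palindromic cAMP response element in GABARAPL1.
SQSTM1: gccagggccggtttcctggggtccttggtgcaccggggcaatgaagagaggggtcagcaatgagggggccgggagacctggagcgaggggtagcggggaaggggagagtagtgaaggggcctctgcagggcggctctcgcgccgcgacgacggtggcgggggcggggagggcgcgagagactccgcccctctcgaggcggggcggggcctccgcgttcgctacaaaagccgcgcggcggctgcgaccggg
WIPI1: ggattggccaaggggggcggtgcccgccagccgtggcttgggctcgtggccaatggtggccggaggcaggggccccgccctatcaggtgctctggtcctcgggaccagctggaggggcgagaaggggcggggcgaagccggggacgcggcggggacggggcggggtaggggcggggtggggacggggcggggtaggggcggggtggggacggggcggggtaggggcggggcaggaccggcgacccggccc
MAP1LC3B: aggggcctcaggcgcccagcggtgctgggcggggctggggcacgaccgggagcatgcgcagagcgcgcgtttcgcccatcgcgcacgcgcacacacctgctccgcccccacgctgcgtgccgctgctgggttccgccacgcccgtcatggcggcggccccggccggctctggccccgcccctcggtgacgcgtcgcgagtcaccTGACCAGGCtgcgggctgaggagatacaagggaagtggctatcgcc
GABARAPL1: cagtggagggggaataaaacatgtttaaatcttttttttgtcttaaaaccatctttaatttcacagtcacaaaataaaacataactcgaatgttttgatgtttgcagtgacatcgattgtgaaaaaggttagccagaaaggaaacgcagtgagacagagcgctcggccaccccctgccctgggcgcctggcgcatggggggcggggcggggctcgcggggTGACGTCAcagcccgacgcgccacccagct

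In these windows 4 motifs were searched on both strands in 35116 promoter stretches of the same length. The core TGACNNNGC was present in 10.9% of all stretches and in 1 of the 10 member genes, MAP1LC3B, at 46 to 38 bases before the start. The palindrome TGACGTCA was present in 1.65% of all stretches and in GABARAPL1, at 30 to 23 bases before the start. CACGTG, the core of the element bound by TFEB and TFE3, was present in 6.34% of all stretches and in 0 of the 10 members. TGATGNAA, a core of the element bound by ATF4 with C/EBP partners, was present in 3.14% and in 0 of the 10. A further motif, the GC box GGGCGG, was searched after the sequences had been seen. The WIPI1 stretch held 9 copies, and 0.285% of all stretches held as many or more. The printed SQSTM1 stretch held 4 copies, which 7.63% of all stretches reached. Those before the other annotated SQSTM1 starts held 2 and 3, reached by 24.3% and 13.9%. MAP1LC3B held 3 and GABARAPL1 held 2, counts reached by 13.9% and 24.3% of stretches. Of the 6 members that did not pass, ULK1 held 5, reached by 4.15% of stretches, GABARAPL2 held 3 and the other 4 members held 0 to 2 in each of their stretches. A match describes the letters and is neither a site nor a cause.

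With palmitate, WT cells held more transcript of 1 receptor, SQSTM1, of the ATG8 genes MAP1LC3B and GABARAPL1, and of the initiation gene WIPI1, by about 4-fold or more on average. These 4 of the 10 members rose and 0 fell (limma on the 3 within-experiment log2 ratios, Benjamini-Hochberg adjusted p under 0.05), while 6.59% of all tested genes rose and 3.84% fell. The other 6 members did not pass. At least 2-fold higher in all 3 experiments were these same 4 members, against 3.25% of all tested genes. In all 3 experiments 7 members were higher and 0 were lower, where 25.9% of all tested genes were higher and 29.6% lower. In FPKM, 6 members were higher in every palmitate library than in any untreated one and 0 were lower, where 15.1% and 14.6% of all tested genes were. The median log2 ratio of the members was 0.67, and that of all tested genes was -0.06. Ratios and folds are on the log2(FPKM + 1) scale, which understates changes of low genes. The p-values, SEs and intervals use the spread between the 3 experiments, moderated by limma toward that of genes of similar level. The prior weighs 3.86 degrees of freedom (median) against 2 from a gene's own ratios. An SE is thus not that of the 3 ratios alone.

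**Figure D1:**
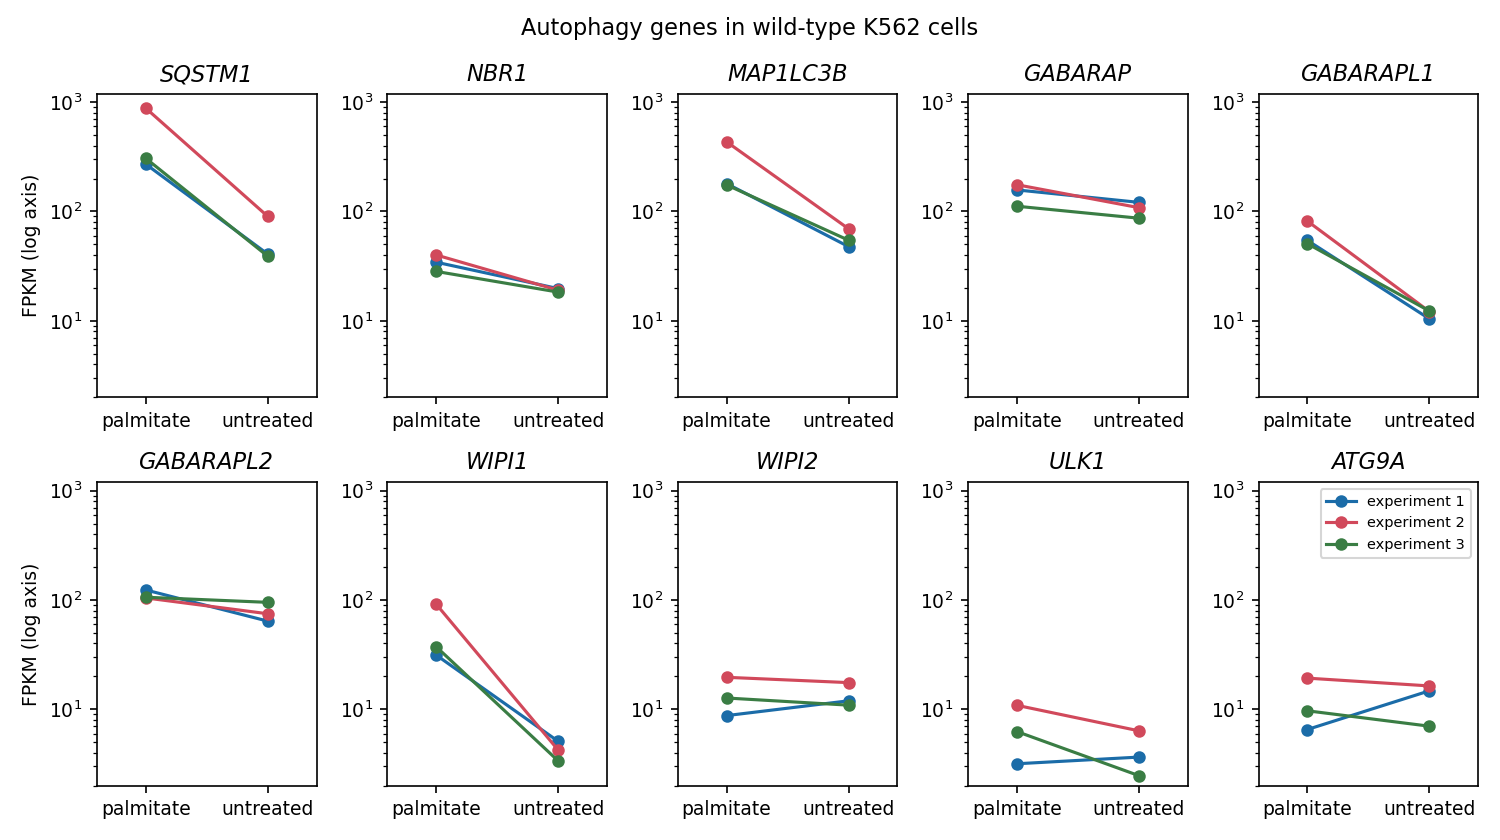
FPKM (log axis) of each gene in WT cells with palmitate (left) and untreated (right), with a line joining the 2 libraries of an experiment. The palmitate points of SQSTM1, MAP1LC3B, GABARAPL1 and WIPI1 lie above every untreated point, while lines of WIPI2, ULK1 and ATG9A slope in different directions.

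SQSTM1 lies on chromosome 5 at 179233398 to 179265078 (hg19 assembly, plus strand). Its level was 271, 880.3 and 306 FPKM with palmitate in experiments 1, 2 and 3, against 40.7, 90.1 and 38.9 FPKM in untreated cells. Every palmitate library was above every untreated one, and both libraries of experiment 2 were the highest of their group. The mean log2 ratio was 2.97 ± 0.20 (moderated limma SE, n = 3 experiments, 95% interval 2.47 to 3.47), or 7.85-fold, and SQSTM1 rose (limma, adjusted p = 0.0120). On the opposite strand, MRNIP (C5orf45 in the files) shares 1582 exonic bases with SQSTM1. Its level was 23.7, 85.6 and 22.3 FPKM with palmitate, against 9.57, 11.2 and 7.21 FPKM untreated. The libraries were made with a stranded kit, but whether the counting used strand is not given in the sources used here, so reads of the 2 genes may not be fully separated.

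NBR1 lies on chromosome 17 at 41322498 to 41363708 (plus strand) and encodes a receptor with the same kinds of ubiquitin and ATG8 binding as p62. It stood at 34.3, 39.996 and 28.3 FPKM with palmitate, against 19.7, 19.0 and 18.3 FPKM untreated. The groups did not overlap, and the untreated libraries lay close together (19.0 ± 0.703 FPKM, SD, n = 3). Its mean log2 ratio of 0.80 ± 0.20 (95% interval 0.30 to 1.30) did not pass over all genes (limma, adjusted p = 0.0592). NBR1 passed when ratios were centred on their median (adjusted p = 0.0445) and when small RNA genes were left out (adjusted p = 0.0279). Over all genes these settings called 964 and 1234 higher, in place of 730. The largest of the 3 NBR1 ratios, 1.03, was below the smallest of SQSTM1, 2.70.

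Among the ATG8 genes, MAP1LC3B encodes LC3B, whose lipid-coupled form is the usual marker of autophagosomes. It lies on chromosome 16 at 87417559 to 87438385 (plus strand). Its level was 180.0, 434 and 175 FPKM with palmitate, against 47.7, 69.5 and 54.6 FPKM untreated. The groups did not overlap, and the palmitate library of experiment 2 was more than double the other two. MAP1LC3B rose by a mean log2 ratio of 2.06 ± 0.25 (95% interval 1.45 to 2.67), or 4.17-fold (limma, adjusted p = 0.0174). Without pairing by experiment its adjusted p was 0.0505, and the call was lost. MAP1LC3B2, a near-identical copy with which reads could be shared, also rose, with a log2 ratio of 1.05 (limma, adjusted p = 0.0383) at a low mean level of 1.79 FPKM. It stood at 0.674, 1.57 and 6.96 FPKM with palmitate, against 0.0973, 0.153 and 2.03 FPKM untreated. RNF213kd cells of experiment 3 held 5.46 FPKM with palmitate and 1.67 FPKM untreated. MAP1LC3B2 thus passed the filter mainly through experiment 3, and there mainly through the palmitate libraries where it was high. Its call does not stand apart from that filter.

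GABARAPL1 was the lowest of the ATG8 members in every library. Located on chromosome 12 at 10365057 to 10375727 (plus strand), it encodes an ATG8 protein of the GABARAP branch. With palmitate it stood at 54.4, 81.7 and 50.8 FPKM, against 10.4, 12.2 and 12.3 FPKM in untreated cells. Every palmitate library was above 50 FPKM and no untreated library was above 13. GABARAPL1 rose by a mean log2 ratio of 2.30 ± 0.22 (95% interval 1.75 to 2.84), or 4.92-fold (limma, adjusted p = 0.0132).

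GABARAP (chromosome 17, 7143327 to 7145768, minus strand), the founding gene of that branch, stood at 157, 176 and 112 FPKM with palmitate, against 121, 108 and 86.8 FPKM untreated. Each palmitate library exceeded its own untreated partner, but the groups overlapped. The mean log2 ratio was 0.48 ± 0.19 (95% interval 0.01 to 0.94), and GABARAP did not pass (limma, adjusted p = 0.147). GABARAPL2, also known as GATE-16 (chromosome 16, 75600273 to 75611779, plus strand), stood at 123, 104 and 106 FPKM with palmitate, against 64.0, 74.8 and 95.1 FPKM untreated. Its groups did not overlap in level, yet its ratios ran between 0.94 in experiment 1 and 0.15 in experiment 3. The mean log2 ratio was 0.52 ± 0.22 (95% interval -0.03 to 1.07) and did not pass (limma, adjusted p = 0.171).

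Summed over the 4 ATG8 members, the level was 515, 796 and 443 FPKM with palmitate, against 243, 265 and 249 FPKM untreated. The make-up of that sum also differed. MAP1LC3B supplied 34.9, 54.5 and 39.5% of it with palmitate, against 19.6, 26.2 and 21.9% untreated. GABARAP supplied 30.5, 22.1 and 25.2% with palmitate, against 49.8, 40.9 and 34.9% untreated. The share of GABARAPL1 was 10.6, 10.3 and 11.4% with palmitate, against 4.3, 4.6 and 4.9% untreated. MAP1LC3B was thus the largest of the 4 in each palmitate library and the third in each untreated one. No test was run on these shares.

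**Figure D2:**
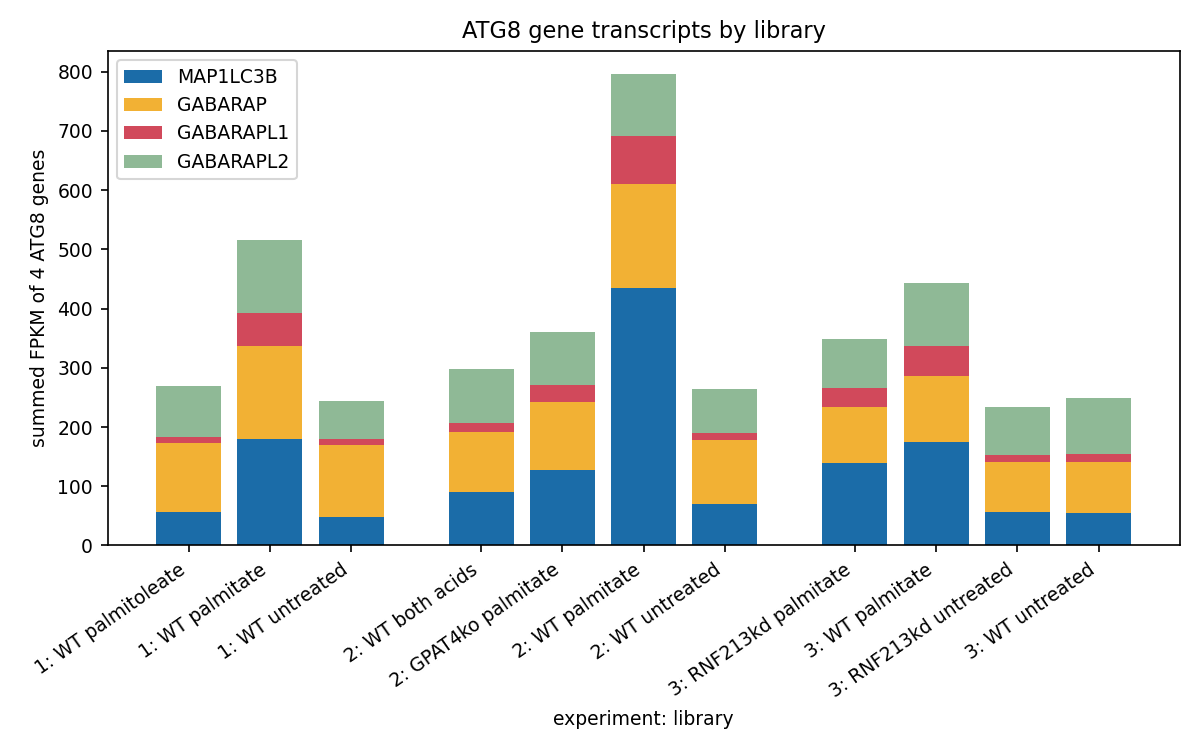
Stacked bars give the FPKM of the 4 ATG8 genes in each of the 11 libraries, grouped by experiment. The WT palmitate libraries sum to 443 to 796 FPKM and all others to 234 to 361 FPKM, with the largest difference in the MAP1LC3B part.

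WIPI1 encodes a PI3P-binding protein of the growing autophagosome membrane and lies on chromosome 17 at 66417089 to 66453654 (minus strand). Its level was 31.3, 91.5 and 37.3 FPKM with palmitate, against 5.09, 4.24 and 3.37 FPKM untreated. It was among the lowest members in untreated cells, and its palmitate libraries were all above 30 FPKM. The mean log2 ratio of 3.23 ± 0.35 (95% interval 2.36 to 4.09), or 9.37-fold, was the largest of the 10, and WIPI1 rose (limma, adjusted p = 0.0142). Its 3 ratios lay between 2.41 in experiment 1 and 4.14 in experiment 2. ARSG, which shares 829 exonic bases with WIPI1 on the opposite strand, stayed between 0.252 and 0.882 FPKM in all 11 libraries.

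WIPI2, the relative of WIPI1 that brings the ATG16L1 complex to the membrane, lies on chromosome 7 at 5229827 to 5273471 (plus strand). It stood at 8.75, 19.6 and 12.7 FPKM with palmitate, against 11.95, 17.5 and 10.9 FPKM untreated. The groups overlapped, and experiment 1 went the other way from experiments 2 and 3. Its mean log2 ratio was -0.02 ± 0.22 (95% interval -0.57 to 0.53) and did not pass (limma, adjusted p = 0.965). The intervals of WIPI1 and WIPI2 do not overlap.

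ULK1, the kinase at the head of the pathway, lies on chromosome 12 at 132379167 to 132407695 (plus strand). It stood at 3.17, 10.9 and 6.25 FPKM with palmitate, against 3.65, 6.35 and 2.47 FPKM untreated. The groups overlapped, and the ratio was below 0 in experiment 1 (-0.16) and above 0 in experiments 2 and 3 (0.69 and 1.06). Its mean of 0.53 ± 0.28 (95% interval -0.16 to 1.22) did not pass (limma, adjusted p = 0.244). ATG9A, which encodes the membrane-spanning protein of the seeding vesicles, lies on chromosome 2 at 220084102 to 220094439 (minus strand). It stood at 6.53, 19.3 and 9.68 FPKM with palmitate, against 14.7, 16.4 and 7.002 FPKM untreated. Experiment 1 again stood apart, with a ratio of -1.06 against 0.22 and 0.42, and the mean of -0.14 ± 0.33 (95% interval -0.96 to 0.68) did not pass (limma, adjusted p = 0.794). ATG9A and GABARAP share 1833 and 691 exonic bases with same-strand protein-coding genes that the annotation leaves without a symbol, and how such reads were split is not given in the sources used here.

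The palmitate ratios of experiment 1 fell with the GC content of the gene (Spearman rho = -0.63 across genes), and those of experiments 2 and 3 hardly did (-0.02 and 0.15). ULK1, ATG9A and WIPI2, the members below 0 in experiment 1, have transcripts with 64.2, 59.8 and 53.8% GC. SQSTM1 has 57.1% GC, and the other 6 members have 42.1 to 51.4%. With the GC trend removed from each ratio, an alternative chosen after seeing the data, the log2 ratio of ULK1 was 0.83 and passed (limma, adjusted p = 0.0179), as did that of NBR1 at 0.76 (adjusted p = 0.0242). ATG9A and WIPI2 then stood at 0.05 and 0.07 and did not pass.

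**Figure D3:**
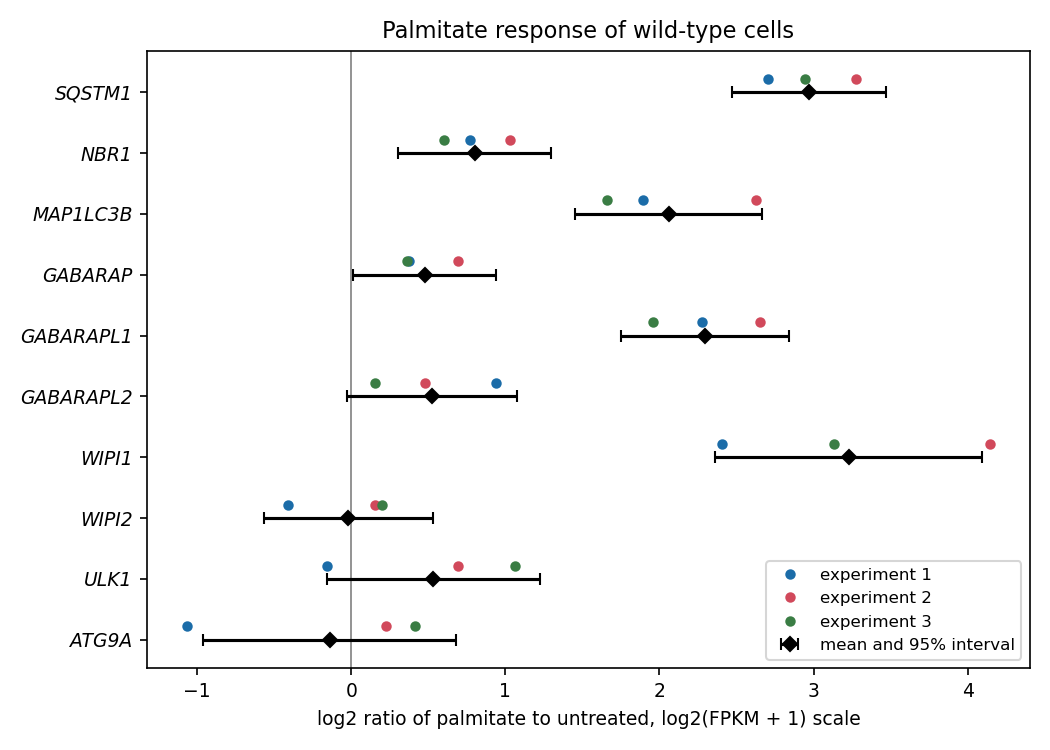
Coloured points give the log2 ratio of palmitate to untreated WT cells in each experiment, and diamonds with bars give the limma mean and its 95% interval. The intervals of SQSTM1, MAP1LC3B, GABARAPL1 and WIPI1 lie wholly above 1, and those of GABARAPL2, WIPI2, ULK1 and ATG9A include 0.

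The calls changed with the experiment left out, over all genes as well as for the members. Without experiment 2, the one with the largest ratio for each of the 4, the 4 calls remained. Without experiment 1 the limma adjusted p-values of the 4 were 0.0521 to 0.0591, and without experiment 3 they were 0.131. In either case 0 members and 0 of all genes passed, so the loss was not particular to these 4. Their log2 ratios stayed between 2.14 and 3.64. With no filter on low values 0 members and 0 of all genes passed (each of the 4 at adjusted p = 0.234). At an unadjusted p under 0.05 the 11075-gene fit holds 3610 genes, and its smallest adjusted p is 0.00984.

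The order of the members by level differed between the groups. In untreated WT cells GABARAP averaged 105 ± 17.4 FPKM (SD, n = 3), GABARAPL2 78.0 ± 15.8, MAP1LC3B 57.25 ± 11.1 and SQSTM1 56.6 ± 29.1. The ranges of neighbours in this order overlapped across the 3 experiments. Within each untreated WT library GABARAPL2 was above MAP1LC3B (64.0 and 47.7, 74.8 and 69.5, 95.1 and 54.6 FPKM). GABARAP and GABARAPL2 changed places in experiment 3, and MAP1LC3B and SQSTM1 in experiment 2. NBR1 followed at 19.0 ± 0.703 FPKM, with no overlap, above WIPI2, ATG9A and GABARAPL1 at 13.5 ± 3.56, 12.7 ± 4.998 and 11.6 ± 1.04, and WIPI1 and ULK1 were lowest at 4.23 ± 0.861 and 4.16 ± 1.99. SQSTM1 was the most abundant member in every library with palmitate alone, whatever the genotype. GABARAP or GABARAPL2 was the most abundant in every untreated library, with palmitoleate alone and with both acids. Each table was scaled on its own, so these means join 3 separate scales.

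Other genes of the pathway were taken from lists by function. Of 17 tested genes for other receptors 5 rose and 0 fell, where 6.59% of all tested genes rose and 3.84% fell. They include OPTN, a receptor for ubiquitinated cargo, with a mean log2 ratio of 2.55 (limma, adjusted p = 0.0189). CCPG1, a receptor for the endoplasmic reticulum, had 2.51 (adjusted p = 0.0120). CALCOCO2, which encodes NDP52, had 1.36 (adjusted p = 0.0297), and STBD1, a glycogen receptor, had 1.31 (adjusted p = 0.0169). OPTN stood at 15.8, 34.8 and 12.8 FPKM with palmitate, against 3.62, 2.33 and 1.71 FPKM untreated. STBD1 stood at 2.72, 2.01 and 3.10 FPKM with palmitate, against 0.458, 0.234 and 0.662 FPKM untreated. STBD1 reached 1 FPKM only with palmitate alone, so it passed the filter through the libraries where it was high. The receptors' median log2 ratio was 0.56. PHB2 and TEX264, receptors for mitochondria and endoplasmic reticulum, had ratios below 0 in every experiment, with means of -0.79 and -0.80 that did not pass (limma, adjusted p = 0.0826 and 0.127).

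Of 11 tested genes that process ATG8 proteins and couple them to lipid, 0 rose and 0 fell (limma), and 2 of them had an unadjusted p under 0.05, ATG4A and ATG16L2, where 32.6% of all tested genes had. ATG16L2 stood at 0.780, 5.43 and 1.47 FPKM with palmitate, against 0.793, 0.977 and 0.477 FPKM untreated. It passed the filter mainly through the palmitate library of experiment 2. The largest ratio was that of ATG4A, a protease that trims ATG8 proteins, at 0.97 (adjusted p = 0.0646), and the list's median was -0.09. Of 18 tested genes for other initiation and nucleation factors 3 rose and 0 fell, against the same 6.59% and 3.84% of all tested genes. WDR45, a further PI3P-binding relative of WIPI1, had 1.81 (limma, adjusted p = 0.0267), TMEM41B, a scramblase of the endoplasmic reticulum, had 1.76 (adjusted p = 0.0180), and NRBF2, a subunit of a PI3-kinase complex, had 1.27 (adjusted p = 0.0306). The median of this list was 0.52. WDR45L, the gene now named WDR45B and also of the WIPI family, stood at 0.10 (limma, adjusted p = 0.744).

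Of 13 tested genes for fusion with the lysosome 0 rose and 0 fell (limma), and 0 of them had an unadjusted p under 0.05, where 32.6% of all tested genes had. Their median was 0.19. Of 10 tested regulators 5 rose and 0 fell, with a median of 0.38. DDIT3, which encodes the stress factor CHOP, had the largest ratio at 3.05 (limma, adjusted p = 0.0120). TFE3, a factor of lysosomal and autophagy genes, had 1.65 (adjusted p = 0.0307), NFE2L2, the antioxidant factor NRF2, had 1.34 (adjusted p = 0.0257), and ATF4 had 1.30 (adjusted p = 0.0465). Each list is set against the same 6.59% of all genes that rose and 3.84% that fell, and no list was tested as a set.

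Palmitoleate was compared in experiment 1, with 1 library a group and so with no replicate check. SQSTM1 stood at 26.5 FPKM with palmitoleate, 271 FPKM with palmitate and 40.7 FPKM untreated. MAP1LC3B stood at 56.6, 180.0 and 47.7 FPKM, GABARAPL1 at 10.2, 54.4 and 10.4 FPKM and WIPI1 at 4.83, 31.3 and 5.09 FPKM in the same order of libraries. For these 4 genes the palmitoleate library lay near the untreated one, and palmitate alone was high. Against untreated cells 0 members were past 2-fold with palmitoleate on the log2(FPKM + 1) scale, while 0.605% of all tested genes were at least 2-fold higher and 6.60% at least 2-fold lower. The nearest were ATG9A with a log2 ratio of -0.99, ULK1 with -0.77 and SQSTM1 with -0.60. The count of 0 depends on the pseudocount, since with 0.1 in place of 1 ATG9A stood at -1.08 and ULK1 at -1.04, and ATG9A was also past 2-fold with centred ratios (-1.01). ATG9A stood at 6.91 FPKM with palmitoleate and 14.7 FPKM untreated, and ULK1 at 1.73 FPKM with palmitoleate and 3.65 FPKM untreated. This ratio fell with GC content across genes (Spearman rho = -0.75). With the GC trend removed ATG9A stood at -0.36, ULK1 at 0.01 and SQSTM1 at -0.09.

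Against palmitate, 4 members were at least 2-fold lower with palmitoleate, where 4.66% of all tested genes were, and 0 were 2-fold higher, where 1.25% were. The log2 ratios were -3.30 for SQSTM1 (95% interval -4.17 to -2.44), -2.47 for WIPI1 (-3.97 to -0.98), -2.30 for GABARAPL1 (-3.25 to -1.35) and -1.65 for MAP1LC3B (-2.70 to -0.60). Intervals of single-library ratios take the moderated spread of the WT palmitate ratios and assume that a lone library varies as those do between experiments. That spread includes the same palmitate library, and such an interval is no test of a treatment or genotype. The doses of the 2 acids cannot be matched here. The palmitate library enters this ratio and the palmitate response of experiment 1 alike. That favours values below 0 for the 4 genes that rose, so all tested genes are not a like background.

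In experiment 2, palmitate together with palmitoleate left every member below its level with palmitate alone, where 46.6% of all tested genes were. The WT palmitate ratio of this experiment was above 0 for all 10 members, and the same palmitate library is the denominator here. That favours values below 0, so all tested genes are not a like background. SQSTM1 stood at 75.1 FPKM with both acids, 880.3 FPKM with palmitate and 90.1 FPKM untreated. MAP1LC3B stood at 89.5, 434 and 69.5 FPKM, GABARAPL1 at 14.8, 81.7 and 12.2 FPKM, and WIPI1 at 9.89, 91.5 and 4.24 FPKM in the same order. SQSTM1 with both acids was thus under its untreated level, and WIPI1 was above it. The log2 ratios to palmitate alone were -3.53 for SQSTM1 (95% interval -4.40 to -2.67), -3.09 for WIPI1 (-4.58 to -1.59), -2.39 for GABARAPL1 (-3.33 to -1.44) and -2.26 for MAP1LC3B (-3.32 to -1.21). These 4 members were at least 2-fold lower with both acids, where 10.2% of all tested genes were and 9.22% were higher, and the members' median was -0.77 against 0.04 for all genes. Against untreated cells 1 member was past 2-fold, WIPI1 with a log2 ratio of 1.06 and an interval that includes 0 (-0.44 to 2.55), where 1.12% of all tested genes were at least 2-fold higher and 0.578% lower. The other 9 lay between -0.26 and 0.40.

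**Figure D4:**
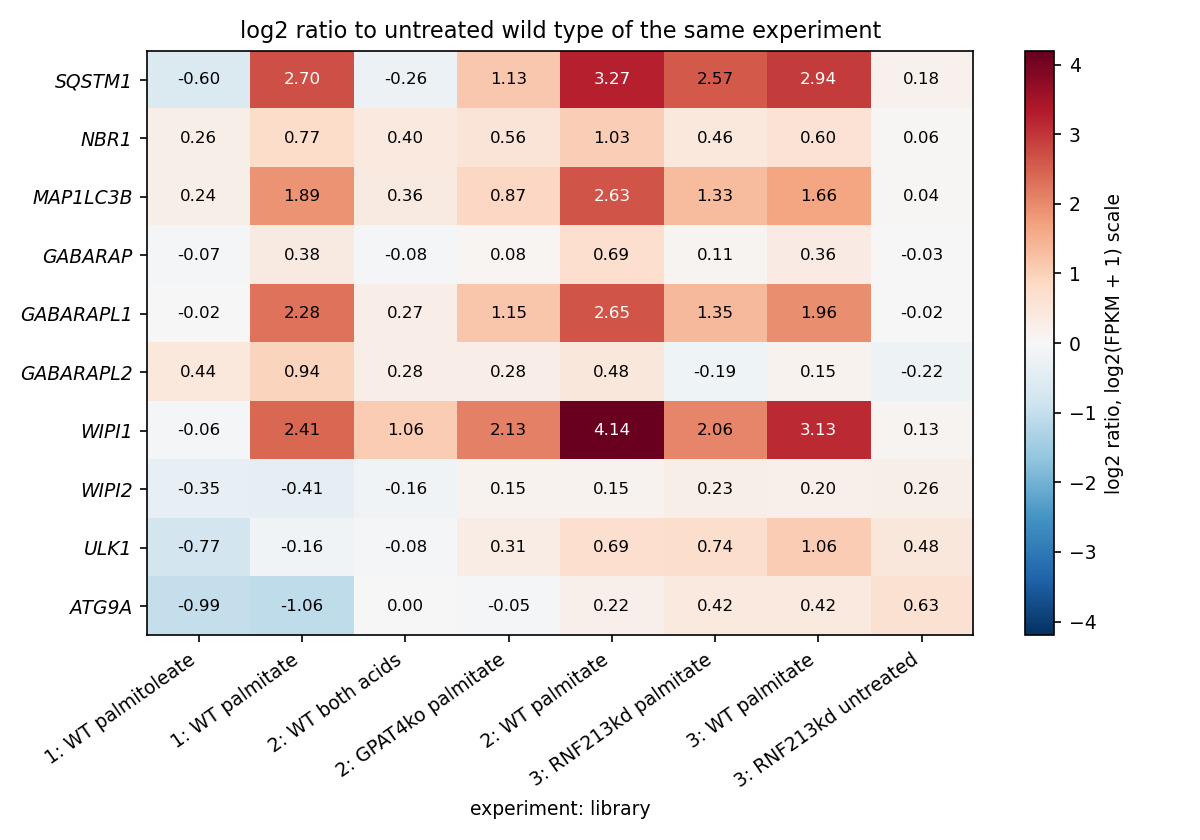
Log2 ratio of each member in 8 libraries to the untreated WT library of the same experiment, on the log2(FPKM + 1) scale, with colour from blue (below 0) to red (above 0). The rows of SQSTM1, MAP1LC3B, GABARAPL1 and WIPI1 are red in every library with palmitate alone, and with both acids only the WIPI1 value, 1.06, is past 2-fold.

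GPAT4ko cells with palmitate held levels between those of the other 2 libraries for these genes. SQSTM1 stood at 198 FPKM in GPAT4ko cells with palmitate, 880.3 FPKM in WT cells with palmitate and 90.1 FPKM in untreated WT cells. MAP1LC3B stood at 128, 434 and 69.5 FPKM, GABARAPL1 at 28.3, 81.7 and 12.2 FPKM, and WIPI1 at 21.9, 91.5 and 4.24 FPKM in the same order. Each of the 4 was intermediate. Against WT cells with palmitate the log2 ratio was -2.15 for SQSTM1 (95% interval -3.01 to -1.28), -2.02 for WIPI1 (-3.51 to -0.52), -1.76 for MAP1LC3B (-2.81 to -0.70) and -1.50 for GABARAPL1 (-2.45 to -0.55). All 10 members were lower in GPAT4ko cells, where 46.3% of all tested genes were, 4 of them by at least 2-fold, where 8.06% of all tested genes were and 7.0% were higher. The WT palmitate library of experiment 2 is again the denominator, which favours values below 0 for members that were high in it. All tested genes are thus not a like background here either. WIPI2 hardly differed (-0.0049, interval -0.96 to 0.95).

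Against untreated WT cells, GPAT4ko cells with palmitate were at least 2-fold higher for 3 members, where 3.64% of all tested genes were and 1.34% were lower. WIPI1 had a log2 ratio of 2.13 (95% interval 0.63 to 3.62), GABARAPL1 1.15 (0.21 to 2.10) and SQSTM1 1.13 (0.26 to 1.99), and MAP1LC3B had 0.87 (-0.18 to 1.92). This comparison differs in genotype and treatment at once, and the 2 cannot be told apart in it. The both-acid and GPAT4ko comparisons share the palmitate and untreated WT libraries of experiment 2, the experiment with the largest palmitate ratios of these 4 genes, so the values do not stand alone.

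In experiment 3, the same 4 genes were more than 2-fold higher with palmitate in RNF213kd cells too. SQSTM1 stood at 236 FPKM in RNF213kd cells with palmitate and 44.4 FPKM in untreated RNF213kd cells, against 306 and 38.9 FPKM in WT cells with palmitate and untreated. WIPI1 stood at 17.3 and 3.78 FPKM in RNF213kd cells, against 37.3 and 3.37 FPKM in WT cells, again with palmitate and untreated. GABARAPL1 stood at 33.0 and 12.1 FPKM in RNF213kd cells, against 50.8 and 12.3 FPKM in WT cells. MAP1LC3B stood at 139 and 56.2 FPKM in RNF213kd cells, against 175 and 54.6 FPKM in WT cells. The untreated libraries were close for all 4, and the palmitate libraries of RNF213kd cells were lower than those of WT cells.

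Within RNF213kd cells the log2 ratio of palmitate to untreated was 2.39 for SQSTM1 (95% interval 1.52 to 3.25), 1.93 for WIPI1 (0.44 to 3.43), 1.38 for GABARAPL1 (0.43 to 2.33) and 1.29 for MAP1LC3B (0.24 to 2.34). These 4 were at least 2-fold higher, where 2.74% of all tested genes were and 0.704% were lower. Untreated RNF213kd cells differed from untreated WT cells by 2-fold for 0 members, where 0.460% of all tested genes were at least 2-fold higher and 0.379% lower. The largest ratios were 0.63 for ATG9A and 0.48 for ULK1, and this comparison rose with GC content across genes (Spearman rho = 0.63). Under palmitate, WIPI1 was at least 2-fold lower in RNF213kd than in WT cells (-1.07, 95% interval -2.57 to 0.43), where 0.804% of all tested genes were and 0.551% were higher.

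In experiment 3 the WT palmitate ratio was above 0 for all 10 members, and it is subtracted in the following difference. That favours values below 0, so all tested genes are not a like background. The response of RNF213kd cells minus that of WT cells was below 0 for all 10 members, where 50.0% of all tested genes were. It was -1.20 for WIPI1 (95% interval -3.32 to 0.92), -0.80 for ULK1 (-2.49 to 0.89), -0.58 for GABARAPL1 (-1.92 to 0.76), -0.56 for SQSTM1 (-1.78 to 0.67) and -0.37 for MAP1LC3B (-1.86 to 1.12). The interval included 0 for each of the 10 members, and with 1 library a group no difference between the genotypes could be tested. WIPI1 alone was past 2-fold, where 1.54% of all tested genes were at least 2-fold lower and 0.704% higher. The difference also followed GC content (Spearman rho = -0.45), and with the GC trend removed WIPI1 stood at -1.17.

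**Figure D5:**
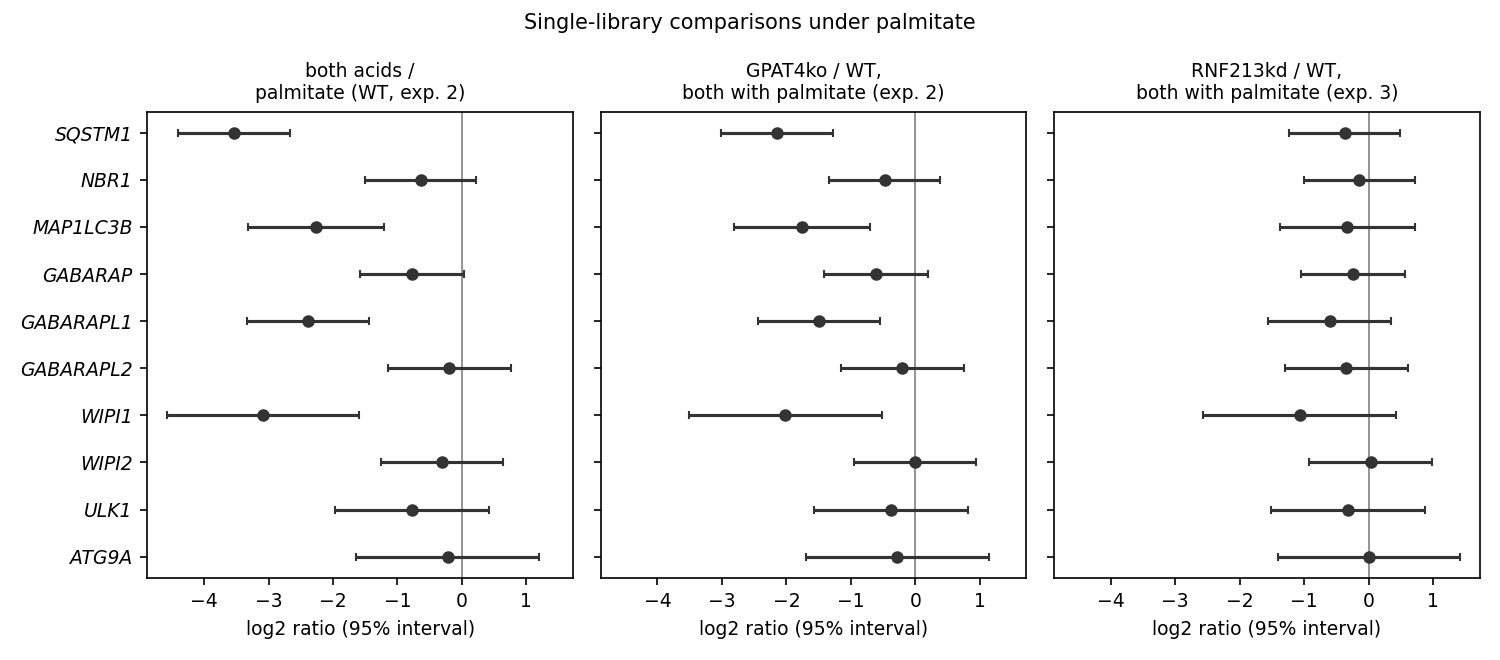
Log2 ratios with 95% intervals for WT cells with both acids over palmitate alone, for GPAT4ko over WT cells with palmitate and for RNF213kd over WT cells with palmitate. The intervals of SQSTM1, MAP1LC3B, GABARAPL1 and WIPI1 lie below 0 in the first 2 panels, and all 10 intervals include 0 in the third.

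Over the 8 ratios to untreated WT cells, the genes with the pattern most like that of a member were ranked by Pearson r among 8070 genes of at least 5 FPKM. For SQSTM1 they were KDELR3, SEC23B and SIL1 (r = 0.987, 0.983 and 0.982). WIPI1 was followed most closely by SRGAP2P2, PTTG1IP and CEBPB (0.995, 0.994 and 0.994), and GABARAPL1 by SLC39A6, YPEL5 and UBE2H (0.994, 0.991 and 0.991). For ULK1 they were AGAP6, ARF1 and PLP2 (0.989, 0.989 and 0.988). Pearson r takes no account of the size of a change. In the WT palmitate response SLC39A6 had a mean log2 ratio of 0.39 and PTTG1IP 0.78. AGAP6, ARF1 and PLP2 had 0.10, 0.11 and 0.51. None of these passed (limma, adjusted p = 0.0612 to 0.806). The other matches rose, with ratios from 1.09 to 2.29. MAP1LC3B and GABARAPL1 had r = 0.98 with each other, and WIPI1 and WIPI2 had r = 0.30. The ratios share their untreated libraries within an experiment, so these values describe likeness and were not tested.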

How the data were processed

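The authors deposited 1 table per experiment. Per the series' design text, stranded poly(A) libraries were sequenced in paired ends, mapped to hg19 with TopHat2 and quantified with Cuffdiff. Versions are not given in the sources used here. The authors' FPKM values were scaled within a table, so ratios were formed only within a table. Tables hold 2 libraries without labels, which were not used. Left out were 26 symbols turned into dates, failed genes (2, 2 and 6) and genes listed with different values (2, 0 and 15).

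Ratios of log2(FPKM + 1) were compared with 0 in limma 3.58.1 under R 4.3.3 (intensity trend, two-sided, Benjamini-Hochberg over genes averaging 1 FPKM or more), after a check on simulated data. The experiment numbers in the labels pair the libraries. Deviations of an untreated library correlated at 0.458, 0.634 and 0.696 with its own experiment's palmitate library, and at -0.526 to 0.0106 with others. Deviations were taken from each group's mean, which pushes the values with others down. Libraries of an experiment also share a table and its scaling, so these values cannot show biological pairing. GC content came from GENCODE transcripts on GRCh37, found for 95.9% of tested genes. Alternatives changed the pseudocount, filter, centring, pairing, trend, small RNA genes, experiments and GC trend. Members, lists and tests were chosen with earlier results of these data known. Named genes were all members, the targeted genes, at most 4 per list by size of ratio (called genes first) and 3 per likeness. PHB2, TEX264, WDR45L and ATG16L2 were named after their values were seen.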

Additional observations from a re-analysis of the deposited data

How the results depend on the processing

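The 4 rises and 0 falls among the members were 4 and 0 with a pseudocount of 0.1, a mean of at least 5 FPKM or no intensity trend. Members called higher numbered 5 with centred ratios and 5 without small RNA genes, 6 after removal of the GC trend, 7 with both of the last, and 0 with no filter. Leaving out 1 experiment gave 0 to 4. No replicate block, that is no pairing by experiment, gave 3 members, and 258 genes higher and 51 lower in place of 730 and 425. Over all genes the counts higher and lower were 705 and 400 with a pseudocount of 0.1, and 536 and 360 at a mean of at least 5 FPKM. They were 722 and 436 without intensity trend, 964 and 636 with centred ratios, and 1234 and 1207 without small RNA genes. After removal of the GC trend they were 1475 and 1578, or 1647 and 1840 also without small RNA genes. Without filter they were 0 and 0. Leaving out experiments 1 or 3 also gave 0 and 0, and leaving out experiment 2 gave 599 and 291, with fewer samples in the fit.

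Directions turned round for WIPI2, at 0.00851 with centred ratios, 0.0743 after removal of the GC trend (0.0745 also without small RNA genes), and -0.13 to 0.18 when 1 experiment was left out. ATG9A turned to 0.0503 after removal of the GC trend (0.0521 also without small RNA genes), and ran from -0.42 to 0.32 when 1 experiment was left out. Neither passed in any of these. With palmitoleate against untreated cells, members past 2-fold numbered 2 with a pseudocount of 0.1 and 1 with centred ratios, in place of 0. Both GC alternatives were chosen after seeing the data. In all other single-library comparisons the number past 2-fold moved by less than 1.5 times. Depth is unknown, so no counting error could be given, and single libraries carry no replicate.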
